A study of Arabidopsis thaliana with 3 samples.

Results

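Arabidopsis plants that had been frozen and then kept at 20 °C in the dark for 24 h were compared with cold-acclimated plants that had not been frozen. The material was all aerial parts of Col-0, the reference accession, at rosette stage 1.14, on Affymetrix ATH1 arrays, which read each transcript with a set of short probes. The comparison uses 2 of the 3 arrays of the series, 1 for each state, and 22746 of the 22810 probe sets, leaving out 64 control probe sets. All plants were grown at 20 °C with 9 h of light and 15 h of dark and then held for 11 days at 4 °C in the same cycle. The 24h-post-freeze plants were frozen at the end of a light period for 20 h and recovered for 24 h. The cold-acclimated plants were collected at hour 5 of the light period.

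By the schedule both harvests fell at hour 5 of the 24 h cycle, but the 24h-post-freeze plants had seen the end of their last scheduled light period 44 h earlier. Freezing, the change from 4 to 20 °C and darkness all separate the 2 arrays and cannot be told apart. The remaining array, from 3 h of recovery, was taken at hour 8 of the cycle, 23 h after that light period. Its signals, and for some groups its ratios to the cold-acclimated array, are given beside the others as description only. Both recovery arrays share the cold-acclimated array, and their own harvests fell at different hours of the cycle. All 3 titles carry the same replicate number, and each state has 1 array, so no test was possible and the spread between plants is unknown.

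A leaf in prolonged darkness makes no sugar and lives on its stores. Starch and sucrose are used first, after which the plant oxidises amino acids, recycles cell contents by autophagy and breaks down lipids, under the control of the energy-sensing kinase SnRK1. Growth processes that cost much energy, such as making ribosomes and flavonoid pigments, are sustained by sugar and light. Cold acclimation works the other way round: plants in the cold accumulate sugars, anthocyanins and protective COR proteins, and they lose this state when returned to warmth.

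A signal is the MAS5 intensity of a probe set on a linear scale. Signals under 16.1, the 30th percentile, were set to that floor, and a ratio against a signal at the floor is given as a bound. The 24h-post-freeze array had a median signal of 42.8 and the cold-acclimated array 42.6, and 70.5% and 70.0% of the signals lay at or above the floor. Of 16974 probe sets measured on at least 1 of the 2 arrays, 1453 (8.56%) had a 2-fold or greater excess after 24 h and 1439 (8.48%) a deficit of that size. Higher ones thus made up 50.2% of the 2-fold differences. This share was 14.8% when the arrays were scaled instead to the bacterial hybridization controls, whose 17 probe sets above the floor had a median log2 ratio of 0.51. That scaling lowered the median over all probe sets to -0.44, from 0.01, and each direction given here holds relative to the other transcripts of an array. Counted by gene, with the brightest probe set for each, 708 of 9374 measured genes (7.55%) were higher by that measure and 745 (7.95%) lower, with a median log2 ratio of 0.01. In the account of gene groups, higher and lower mean past 2-fold, and counts of members are to be read against these shares. Members, lists and families were all chosen with earlier results of these data known, so their counts and medians describe the data and are no independent evidence. For 77 genes with a pair of probe sets above the floor, the log2 ratios of the pair gave an error of 0.40 (SD of 1 probe set, 1.32-fold). This covers only error that differs between the probe sets of a gene. Error shared by a whole array cancels in it, and the spread between plants is not in it. Of these pairs 6 differed by over 1 in log2 ratio, the most by 1.76.

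**Figure D1:**
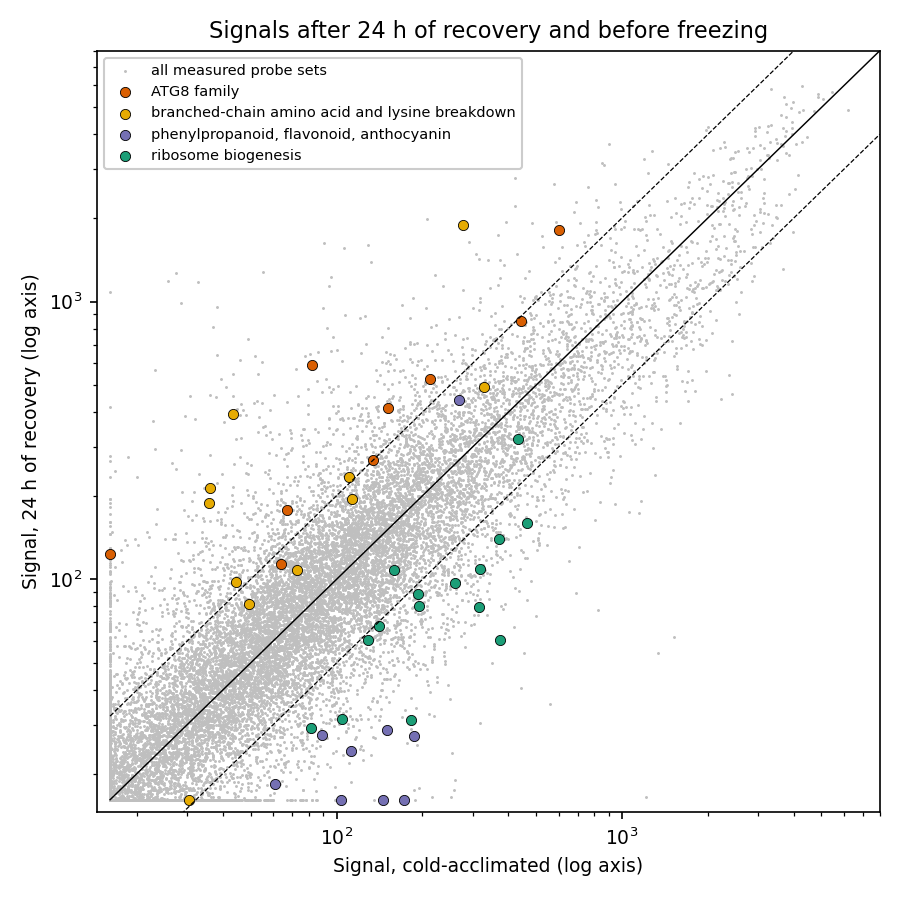
Signal of each measured probe set after 24 h of recovery (vertical) against its signal on the cold-acclimated array (horizontal), both on log axes with signals under 16.1 set to 16.1. The solid line marks equal signals and the dashed lines 2-fold differences. Coloured points are the brightest probe sets of 4 gene groups: 7 of 9 ATG8 genes and 6 of 11 amino acid breakdown genes lie above the upper dashed line, and 8 of 9 flavonoid-related and 13 of 15 ribosome biogenesis genes lie below the lower one.

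The few measured transcripts known from darkened and starved leaves mostly stood far above their cold-acclimated level. Only 6 of the 27 genes written on the list of dark-induced and low-energy markers are on the annotation. All 6 were measured, and 5 were higher and none lower, with a median log2 ratio of 3.72. Without 3 members that were put on the list with their values known, 2 of 3 were higher and the median was 2.39. AKINBETA1, a regulatory subunit of SnRK1, had a signal of 432 after 24 h, against 54.9 on the cold-acclimated array, a 7.85-fold difference. At 3 h it was at 57.2, so its higher level was seen at 24 h and not at 3 h. AT3G15450 was at 2214 after 24 h, against 422 on the cold-acclimated array (5.25-fold), and it too was near the control at 3 h, at 503. BZIP53, a transcription factor that switches on amino acid breakdown under low energy, was within 2-fold, at 429 after 24 h and 341 on the cold-acclimated array. The 3 members listed with their values known were AT4G27450, AT2G20670 and AT2G05540, and the reference gives them no name. Their signals after 24 h were 1174, 956 and 813, against 32.8, 38.0 and 37.0 on the cold-acclimated array. The 3 h signal of AT2G20670 was under the floor, at 4.38.

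Breakdown of branched-chain amino acids and lysine was the metabolic pathway on the lists with the most higher members. Of 11 measured genes 6 were higher and none lower, with a median log2 ratio of 1.09. The bifunctional enzyme that starts lysine breakdown (AT4G33150, listed in the reference as LKR/SDH) was at 394 after 24 h, against 43.5 on the cold-acclimated array (9.08-fold). IVD, isovaleryl-CoA dehydrogenase of the leucine pathway, was at 214 after 24 h, against 36.0 on the cold-acclimated array (5.94-fold). The next leucine enzyme, methylcrotonyl-CoA carboxylase, has 2 subunits. Its subunit MCCA was at 189 after 24 h, against 35.7 on the cold-acclimated array (5.30-fold). Its subunit MCCB, named here after its values were seen, was at 234 after 24 h, against 110 on the cold-acclimated array (2.12-fold). Both subunits were thus higher, by unequal folds. ALDH7B4, an aldehyde dehydrogenase linked to lysine breakdown and to dehydration, was at 1880.0 after 24 h, against 278 on the cold-acclimated array (6.76-fold).

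The time of these differences was not shared by all of them. ALDH7B4 was already at 710 at 3 h, whereas AT4G33150, IVD and MCCA stood at 26.4, 39.9 and 28.0 then, near or under their cold-acclimated signals. Electrons from IVD and from D2HGDH pass to the respiratory chain through the flavoprotein ETF and its oxidoreductase ETFQO. The ETFQO signal was 81.6 after 24 h and 49.5 on the cold-acclimated array, and ETFALPHA had 108 after 24 h and 72.7 on the cold-acclimated array, both within 2-fold. ALDH6B2 of valine breakdown also lay within 2-fold, at 493 after 24 h and 328 on the cold-acclimated array. AT5G09300 was the only member with a negative ratio: it was under the floor after 24 h, at 6.72, and at 30.4 on the cold-acclimated array. Among other genes of amino acid and purine breakdown 2 of 4 were higher. MGL, methionine gamma-lyase, had 102 after 24 h, against 45.9 on the cold-acclimated array, and AT5G38710 had 65.3 after 24 h, at least 4.06-fold above the cold-acclimated array, where it was under the floor. The purine breakdown enzymes ALN (allantoinase; 57.4 after 24 h and 34.7 on the cold-acclimated array) and AAH (allantoate amidohydrolase; 97.7 after 24 h and 115 on the cold-acclimated array) were within 2-fold.

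Most of the ATG8 family, a group added after values were seen, was higher. ATG8 proteins are small ubiquitin-like proteins that are coupled to lipid on the autophagosome, the vesicle that carries cell contents to the vacuole, and that recruit cargo to it. All 9 family members on the annotation were measured, and 7 were higher and none lower, with a median log2 ratio of 1.40. With scaling to the hybridization controls 3 of the 9 were higher and the median was 0.89. ATG8E had the signal 589 after 24 h, against 81.7 on the cold-acclimated array (7.21-fold). ATG8H was at 124 after 24 h and under the floor on the cold-acclimated array, at 14.8, and so at least 7.69-fold higher. ATG8F was at 1816 after 24 h, against 600.2 on the cold-acclimated array (3.03-fold). These 3 were the extremes of the family, and the folds of the others were smaller.

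ATG8C stood at 413 after 24 h, against 152.0 on the cold-acclimated array, APG8A at 525 after 24 h, against 212 on the cold-acclimated array, and ATG8D at 269 after 24 h, against 134 on the cold-acclimated array. The 2 members within 2-fold lay on the same side, APG8H at 854 against 443 on the cold-acclimated array and ATG8G at 114 against 64.1 on the cold-acclimated array. At 3 h the family was near its cold-acclimated level with the exception of ATG8H: the median log2 ratio was 0.03, and ATG8H was at 63.7. All 7 higher genes on the autophagy list of 16 measured genes were ATG8 genes, and the 7 listed genes of other kinds lay within 2-fold; the difference between these kinds was not tested. Of those, AT2G37840 was at 94.1 after 24 h and 87.9 on the cold-acclimated array, and AT3G61960 was at 175 after 24 h and 140.4 on the cold-acclimated array. A second probe set of AT2G37840 had a log2 ratio of 0.94. AT5G50230, named here after its values were seen, was at 185 after 24 h and 94.9 on the cold-acclimated array (1.95-fold). Its ratio was above those of APG8H and ATG8G, so the kinds overlap.

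**Figure D2:**
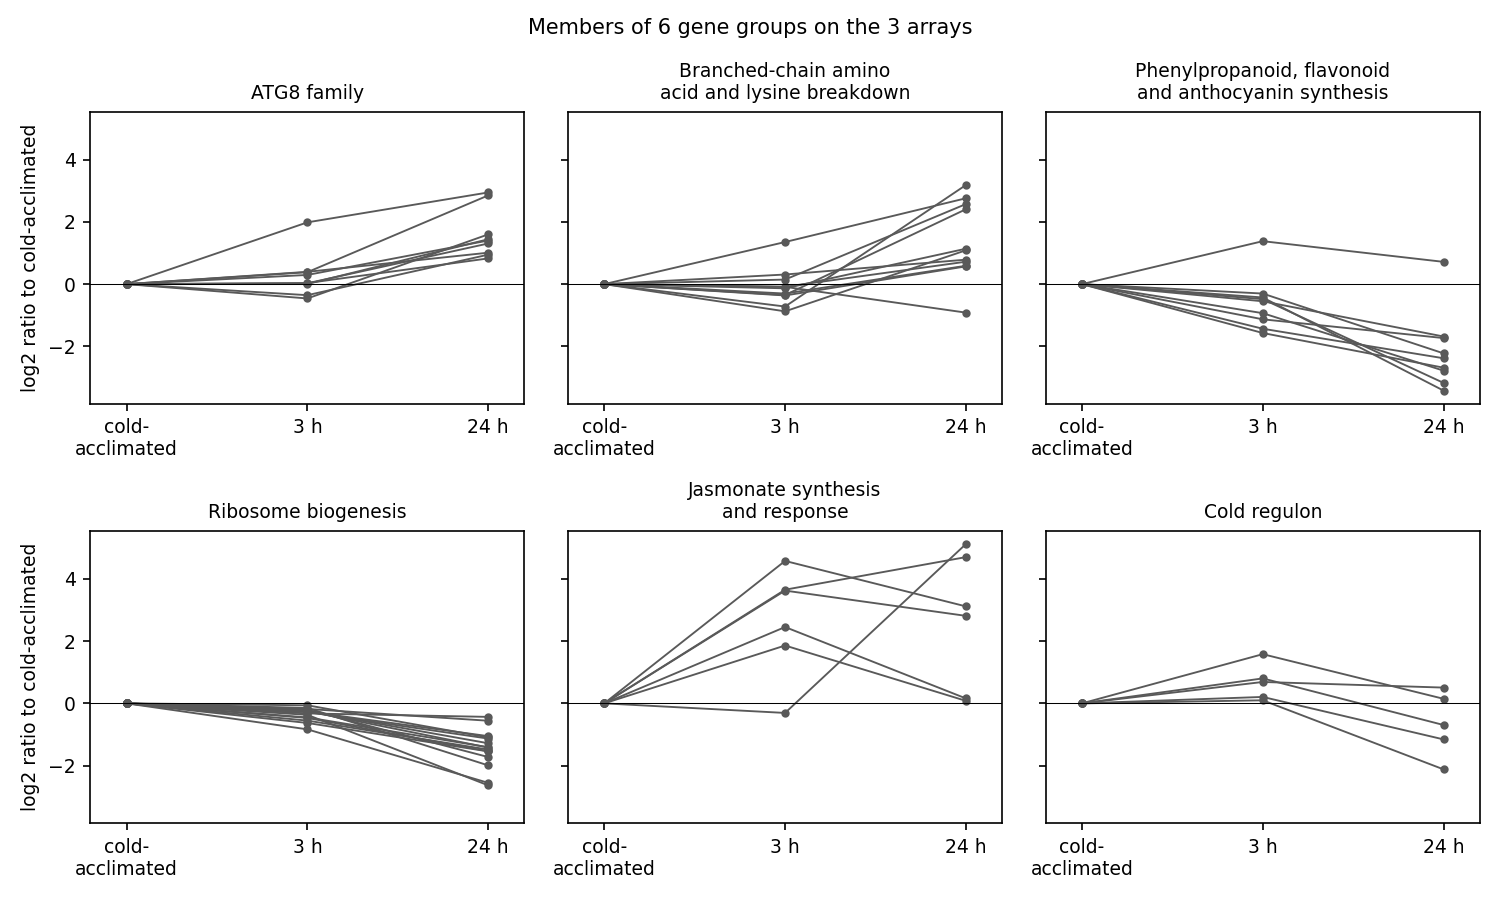
Log2 ratio of each measured member of 6 gene groups to its cold-acclimated signal, on the cold-acclimated (0 by construction), 3 h and 24 h arrays; each line is 1 gene and each array is 1 sample. Ratios of the ATG8 and amino acid breakdown genes lie mostly near 0 at 3 h (medians 0.03 and -0.13) and above 0 at 24 h (1.40 and 1.09), those of ribosome biogenesis are lower at 24 h (median -1.42) than at 3 h (-0.28), and the jasmonate group spreads widely at both times (medians 3.04 at 3 h and 2.96 at 24 h).

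Only 2 genes for using stored lipid, out of 21 written on the list, were measured, and both were higher. SDP1, the lipase that opens seed oil and acts on leaf storage lipid, was at 178 after 24 h, against 64.9 on the cold-acclimated array (2.73-fold). AIM1, a multifunctional protein of peroxisomal beta-oxidation, was at 600.3 after 24 h, against 274 on the cold-acclimated array (2.19-fold). At 3 h both stood near the control, at 79.2 and 240.3.

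The senescence and chlorophyll breakdown list had 1 of 5 measured members higher and none lower, with a median log2 ratio of 0.02. Only 5 of the 21 genes written on this list are on the annotation, so most of the process was not read. SAG29, a sugar transporter of the SWEET family named for its rise in ageing leaves, was at 82.9 after 24 h and under the floor on the cold-acclimated array (10.6), at least 5.15-fold higher. WRKY53, a factor that promotes leaf senescence, was within 2-fold on the low side, at 89.8 after 24 h and 149 on the cold-acclimated array. NOL, a chlorophyll b reductase, had 120 after 24 h and 118 on the cold-acclimated array. Signals of SAG101 and WRKY6 likewise lay close together, at 63.7 and 87.9 after 24 h and 59.0 and 91.4 on the cold-acclimated array.

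The few measured nuclear transcripts of the photosynthetic apparatus outside the antenna were still well above the floor after 44 h without scheduled light. Only 5 of 34 listed genes for photosystem and electron transport subunits are on the annotation. For the Calvin cycle it is 4 of 22 and for photorespiration 3 of 14. None of 5 measured nuclear genes for photosystem and electron transport subunits was past 2-fold, and their median log2 ratio was 0.46. PSAE-1, of photosystem I, was at 3569 after 24 h and 2204 on the cold-acclimated array, and ATPC1, the gamma subunit of the plastid ATP synthase, was at 2370 after 24 h and 2257 on the cold-acclimated array. None of 4 Calvin cycle genes (median -0.14) and none of 3 photorespiration genes (median 0.19) passed 2-fold. RCA, Rubisco activase, was at 4068 after 24 h and 3216 on the cold-acclimated array, and SBPASE, sedoheptulose-bisphosphatase, at 879 after 24 h and 1494 on the cold-acclimated array. These leaf markers were well above the floor on both arrays, whereas none of the 7 flower organ markers is on the annotation. With scaling to the hybridization controls the photosystem median was -0.05.

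The 3 measured genes for the minor antenna protein CP29 differed from one another. LHCB4.1 was within 2-fold, at 4298 after 24 h and 3243 on the cold-acclimated array. LHCB4.2 was higher, at 4153 after 24 h, against 1965 on the cold-acclimated array (2.11-fold). LHCB4.3 was lower, at 73.9 after 24 h, against 501 on the cold-acclimated array (6.78-fold), and had been at 359 at 3 h. Of 9 chlorophyll synthesis genes 1 was higher, 1 was lower, and the median log2 ratio was 0.05. HEME1, uroporphyrinogen decarboxylase, was at 540.2 after 24 h, against 239 on the cold-acclimated array (2.26-fold). CHLI2, a subunit of magnesium chelatase, was at 119 after 24 h, against 266 on the cold-acclimated array (2.24-fold lower). PORB, the light-dependent reductase that makes chlorophyllide, was nearly level, at 2457 after 24 h and 2168 on the cold-acclimated array.

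Flavonoid and anthocyanin synthesis held some of the lowest ratios. On the phenylpropanoid, flavonoid and anthocyanin list 8 of 9 measured genes were lower and none higher, and the median log2 ratio was -2.38. Only 10 of the 42 genes written on this list are on the annotation. DFR, dihydroflavonol reductase of the anthocyanin branch, was at 24.2 after 24 h, against 113 on the cold-acclimated array (4.67-fold lower). CHIL, a chalcone isomerase-like protein, was under the floor after 24 h, at 4.09, and at 145 on the cold-acclimated array, at least 9.01-fold lower. AT1G06000, under the floor at 0.974 after 24 h and at 172 on the cold-acclimated array, was at least 10.7-fold lower.

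Sugar transfer onto flavonoids was low in the same way. UGT78D1, a flavonol rhamnosyltransferase, had 28.8 after 24 h, against 150 on the cold-acclimated array, and UGT78D2, a flavonoid glucosyltransferase, had 27.3 after 24 h, against 187 on the cold-acclimated array. UF3GT, a xylosyltransferase of anthocyanins, was at 27.6 after 24 h, against 88.6 on the cold-acclimated array, and the anthocyanin malonyltransferase AT5MAT at 18.3 after 24 h, against 60.8 on the cold-acclimated array. All 4 were past 2-fold, by 3.21-fold to 6.86-fold. At 3 h these genes lay between, with DFR at 91.4 and CHIL at 104. HCT, which serves lignin rather than flavonoid synthesis, was the only measured member on the other side, within 2-fold, at 441 after 24 h and 269 on the cold-acclimated array, after 699 at 3 h. HYH, a light-signalling transcription factor that promotes flavonoid genes, was at 23.5 after 24 h, against 112 on the cold-acclimated array (4.79-fold lower).

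Sugar metabolism went in both directions. Of 12 measured genes for sucrose synthesis, cleavage and sugar transport 2 were higher and 3 lower, with a median log2 ratio of -0.54. ATSPS4F, a sucrose-phosphate synthase, was at 23.7 after 24 h, against 254 on the cold-acclimated array (10.7-fold lower). TMT2, which loads hexoses into the vacuole in the cold, was at 91.4 after 24 h, against 313 on the cold-acclimated array (3.43-fold lower). SWEET13, a sucrose exporter of the phloem loading path, was at 49.9 after 24 h, against 349 on the cold-acclimated array (6.99-fold lower). Synthesis, vacuolar storage and export each had a lower gene. SWEET11, which acts with SWEET12 in phloem loading, was within 2-fold, at 297 after 24 h and 467 on the cold-acclimated array.

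On the other side stood AT1G62660, at 71.1 after 24 h and under the floor on the cold-acclimated array (9.91), at least 4.42-fold higher. SWEET2, a vacuolar sugar transporter, was at 101 after 24 h, against 42.2 on the cold-acclimated array (2.39-fold), with a higher signal of 213 at 3 h. The SWEET family, grouped after values were seen, had 14 measured members, of which 2 were higher and 2 lower, with a median log2 ratio of 0.09; its extremes were SAG29 and SWEET13. SWEET1 was the second lower one, at 108 after 24 h, against 243 on the cold-acclimated array.

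For starch, 1 of 6 measured genes, out of 37 written on the list, was higher and 1 lower, with a median log2 ratio of -0.58. AMY1, an alpha-amylase, was at 126 after 24 h, against 33.3 on the cold-acclimated array (3.77-fold). APL3, a large subunit of ADP-glucose pyrophosphorylase, the enzyme that commits sugar to starch, was at 58.6 after 24 h, against 155 on the cold-acclimated array (2.64-fold lower). Branching enzyme SBE2.2 had 94.8 after 24 h and 183 on the cold-acclimated array, and PWD, phosphoglucan water dikinase, which prepares starch for breakdown, had 350.2 after 24 h and 633 on the cold-acclimated array, both within 2-fold. DPE1, the plastid enzyme that recycles maltotriose, was level, at 117 after 24 h and 121 on the cold-acclimated array.

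**Figure D3:**
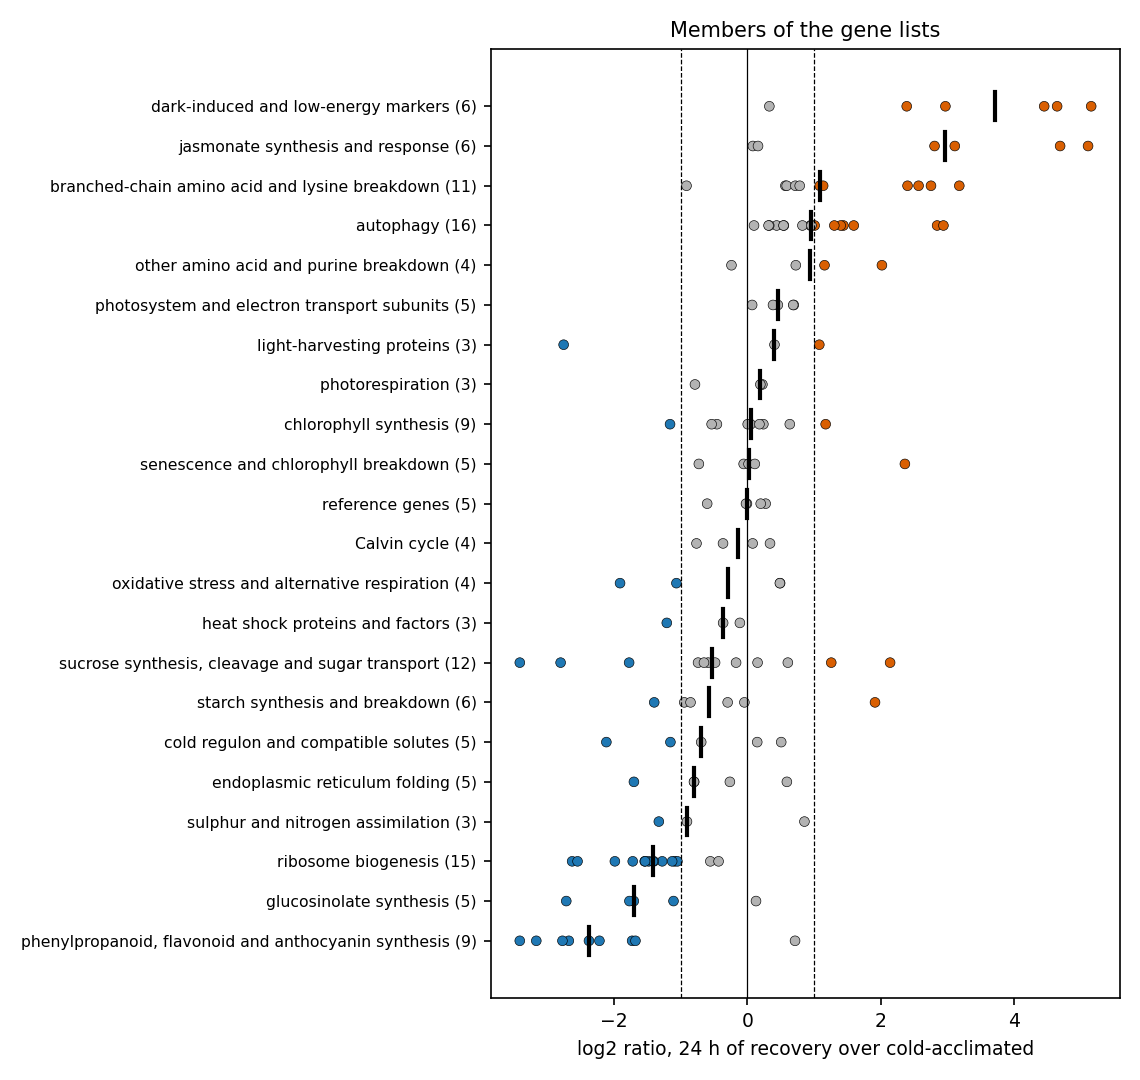
Log2 ratio, 24 h of recovery over cold-acclimated, of every measured member of the 22 gene lists with at least 3 measured genes (number in brackets), sorted by median. Orange points are at least 2-fold higher, blue points at least 2-fold lower, grey points within 2-fold, and the thick bars are medians: they run between 3.72 for dark-induced markers at the top (2.39 without the 3 members listed with their values known) and -2.38 for flavonoid-related synthesis at the bottom, with reference genes at -0.01.

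The measured genes for making ribosomes, 15 of the 34 written on the list, were low nearly throughout. Ribosome biogenesis had 13 of 15 measured genes lower and none higher, with a median log2 ratio of -1.42; 11 of the 15 were placed on the list by locus and carry no name in the reference. Both large subunits of RNA polymerase I, the enzyme that transcribes ribosomal RNA genes, were lower. NRPA1 was at 29.1 after 24 h, against 81.5 on the cold-acclimated array (2.80-fold), and NRPA2 at 60.3 after 24 h, against 129 on the cold-acclimated array (2.13-fold). IMP4, named for the yeast protein of the complex that processes small-subunit RNA, was at 67.8 after 24 h, against 141 on the cold-acclimated array (2.07-fold). The helicase PRH75 was within 2-fold, at 319 after 24 h and 431 on the cold-acclimated array. The lowest ratio of the list, that of AT1G52930, came from 60.4 after 24 h, against 374 on the cold-acclimated array (6.20-fold). YAO, a nucleolar WD-repeat protein that was not on the list, was at 37.3 after 24 h, against 182 on the cold-acclimated array (4.88-fold lower). It is named because it was among the 40 lowest ratios, so its low value adds nothing to the count.

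Subunits of nuclear RNA polymerases were also counted together, in a group added after values were seen. Of its 11 measured genes 5 were lower and none higher, with a median log2 ratio of -0.94, but NRPA1 and NRPA2 are on the ribosome biogenesis list too. Without them 3 of 9 were lower, with a median of -0.80. The 3 were NRPB9B (33.5 after 24 h, against 108 on the cold-acclimated array), NRPB7 (48.1 after 24 h, against 146 on the cold-acclimated array) and NRPB12 (114 after 24 h, against 279 on the cold-acclimated array), which belong to RNA polymerase II or are shared with it. Both large subunits of polymerase III lay within 2-fold, NRPC2 at 29.3 after 24 h and 56.3 on the cold-acclimated array, and NRPC1 under the floor after 24 h, at 15.0, and at 20.1 on the cold-acclimated array. NRPB6A and NRPB6B were within 2-fold, at 195 and 194 after 24 h and 340 and 313 on the cold-acclimated array, and NRPE7, of polymerase V, was level at 58.2 after 24 h and 58.3 on the cold-acclimated array. The core histones, also added, had 2 of 5 lower: HTB1 was at 69.7 after 24 h, against 235 on the cold-acclimated array, and HTB2 at 70.8 after 24 h, against 196 on the cold-acclimated array. AUR1, a mitotic kinase, lay within 2-fold, at 51.1 after 24 h and 91.6 on the cold-acclimated array. The linker histone HIS1-3, which is induced by drought, went the other way, at 249 after 24 h, against 27.4 on the cold-acclimated array (9.11-fold higher), after 18.4 at 3 h.

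Genes of the plastid chaperonin were among the lower ones. All 3 measured beta subunits of plastid chaperonin-60, the chamber that folds Rubisco, were lower, in a group added after values were seen, with a median log2 ratio of -1.95. Cpn60beta2 was at 102 after 24 h, against 415 on the cold-acclimated array (4.06-fold), Cpn60beta3 at 29.6 after 24 h, against 114 on the cold-acclimated array (3.85-fold), and Cpn60beta4 at 37.8 after 24 h, against 98.0 on the cold-acclimated array (2.60-fold). Genes with PPR, OTP or CRR names, many of them for RNA editing and processing in plastids or mitochondria, were also grouped after values were seen and had 5 of 11 lower and none higher, with a median of -0.98. PPR596 was at 37.7 after 24 h, against 150 on the cold-acclimated array (3.97-fold), and PPR336 at 61.9 after 24 h, against 164 on the cold-acclimated array (2.64-fold). OTP81 was under the floor after 24 h, at 2.24, and at 51.8 on the cold-acclimated array, at least 3.22-fold lower.

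Of the 69 transcripts encoded in the plastid itself, 11 were lower and 1 higher, with a median log2 ratio of -0.17. The subunit of Rubisco that the plastid encodes, rbcL, was at 464 after 24 h, against 2430 on the cold-acclimated array (5.23-fold lower), with 1255 at 3 h. The genes ndhF and ndhJ of the plastid NADH dehydrogenase-like complex were at 19.0 and 387 after 24 h, against 261 and 1194 on the cold-acclimated array. Most of the others stayed within 2-fold, with atpB at 5450 after 24 h and 4854 on the cold-acclimated array and rpoA, of the plastid RNA polymerase, at 1625 after 24 h and 954 on the cold-acclimated array. The labels do not say how the RNA was primed, and organelle transcripts carry few stable poly(A) tails. The 12 measured mitochondrial transcripts had 3 lower, cox1 and nad4 among them (63.4 and 323 after 24 h, against 169 and 688 on the cold-acclimated array), and a median of -0.23.

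The few measured genes of the cold regulon were lower or within 2-fold. Of 5 measured members, out of 29 genes written on the list, 2 were lower and none higher, with a median log2 ratio of -0.69. With scaling to the hybridization controls 3 were lower and the median was -1.20. COR15B, a plastid membrane-protecting protein, was at 545 after 24 h, against 2370 on the cold-acclimated array (4.34-fold lower), and its relative COR15A at 1780 after 24 h, against 3969 on the cold-acclimated array (2.23-fold lower). The dehydrin LTI30 was within 2-fold, at 1758 after 24 h and 2846 on the cold-acclimated array, after 4961 at 3 h. The dehydrin COR47 was nearly level, at 1426 after 24 h and 1288 on the cold-acclimated array, after 3852 at 3 h. TIL, a lipocalin of the plasma membrane that protects against frost and heat, was also within 2-fold, at 1592 after 24 h and 1120 on the cold-acclimated array. None of the 5 lay above its 3 h signal after 24 h.

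The 2 measured markers of dehydration, out of 28 genes written on their list, stood on the other side. Both measured genes on the abscisic acid and dehydration list were higher: LEA4-5, a late embryogenesis abundant protein that protects drying cells, was at 122 after 24 h, against 31.5 on the cold-acclimated array (3.88-fold), and AT3G02480 was at 172 after 24 h and under the floor on the cold-acclimated array, at least 10.7-fold higher. The 2 had different courses: at 3 h LEA4-5 had a higher signal, 210, and AT3G02480 a lower one, 39.3, than at 24 h. Other genes of this kind differed less. In the LEA family 2 of 3 measured members were higher, LEA4-5 among them. Its member AT2G44060 was nearly level, at 735 after 24 h and 767 on the cold-acclimated array. The dehydrins COR47 and LTI30, counted with the cold regulon, were within 2-fold. SIS, a salt-induced serine-rich protein, was on no list and is named because it was among the 40 highest ratios. It was at 277 after 24 h, against 18.6 on the cold-acclimated array (14.8-fold higher). At 3 h it was at 30.1.

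Genes for protein folding and for handling oxidants were low or near the control. In the endoplasmic reticulum 1 of 5 was lower (median -0.80): the calreticulin CRT1b, a calcium-binding chaperone, was at 439 after 24 h, against 1431 on the cold-acclimated array (3.26-fold). The membrane-bound factor BZIP60 of the unfolded protein response, at 1228 at 3 h, was at 378 after 24 h and 454 on the cold-acclimated array. Of 3 measured heat shock genes 1 was lower, AT3G09440, at 538 after 24 h, against 1245 on the cold-acclimated array. SAPX, the stromal ascorbate peroxidase, was at 136 after 24 h, against 511 on the cold-acclimated array (3.77-fold lower), while TAPX, its relative on the thylakoid, was within 2-fold, at 204 after 24 h and 146 on the cold-acclimated array. NDB2, an external NADH dehydrogenase of mitochondria, was at 145 after 24 h, against 303 on the cold-acclimated array (2.09-fold lower). MSRB5, a methionine sulfoxide reductase, which repairs oxidised proteins, was at 17.7 after 24 h, against 194 on the cold-acclimated array (11.0-fold lower). It was on no list and is named because it was among the 40 lowest ratios.

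Jasmonate-related transcripts differed from one another in their course. On the list 4 of 6 measured genes were higher and none lower, with a median log2 ratio of 2.96. Only 7 of the 33 genes written on this list are on the annotation. JRG21, named for its response to jasmonate, was at 418 after 24 h and under the floor on the cold-acclimated array, at 15.5, and at least 25.9-fold higher. AT5G05600 and AT2G38240 were at 408 and 886 after 24 h, against 47.1 and 126 on the cold-acclimated array (8.66-fold and 7.02-fold). Their 3 h signals were higher still, 1121 and 1554, while that of JRG21 was 202. The fourth higher gene was PDF1.4, whose signals are given with the defensins. The defensin PDF1.2, a standard marker of joint jasmonate and ethylene signalling, was at 803 after 24 h and 719 on the cold-acclimated array, after 3934 at 3 h. PDF1.2b, at 1089 after 24 h and 1029 on the cold-acclimated array, is read by a probe set that cross-hybridizes with related genes.

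PDF1.4 had the opposite course to PDF1.2 and one of the highest ratios of all. It was at 989 after 24 h, against 28.5 on the cold-acclimated array (34.7-fold), and at 23.1 at 3 h. Among 8 measured defensins and cysteine-rich peptides, a group added after values were seen, 2 were higher and 2 lower. LCR67, which the reference also lists as PDF1.1, was at 88.9 after 24 h and under the floor on the cold-acclimated array, at least 5.52-fold higher. PDF2.1 was under the floor after 24 h, at 12.7, and at 74.8 on the cold-acclimated array, at least 4.65-fold lower, and LCR68 was at 425 after 24 h, against 1141 on the cold-acclimated array (2.69-fold lower). Members of 1 peptide family thus lay at both ends of the range.

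The few measured genes of glucosinolate synthesis, which makes the sulphur-rich defence compounds of the cabbage family, were mostly low. Of 5 measured genes, out of 35 written on the list, 4 were lower and none higher, with a median log2 ratio of -1.71. BCAT4, the aminotransferase that starts methionine chain elongation, was at 187 after 24 h, against 639 on the cold-acclimated array (3.42-fold). UGT74B1, which adds the glucose, was at 110 after 24 h, against 237 on the cold-acclimated array (2.16-fold). GSTU20, a glutathione transferase linked to the same pathway, was at 173 after 24 h, against 1143 on the cold-acclimated array (6.60-fold). AOP3, of side-chain modification, was at 17.6 after 24 h and under the floor on the cold-acclimated array, too close to the floor for a difference. Of 3 genes for sulphur and nitrogen assimilation 1 was lower, the ATP sulfurylase APS3 (39.9 after 24 h, against 100.4 on the cold-acclimated array), and its relative APS4 lay within 2-fold with the higher signal after 24 h, at 325 after 24 h and 179 on the cold-acclimated array.

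The beta-glucosidases, enzymes that cut glucose from glucosinolates and other stored glucosides, were another group added after values were seen. Of 13 measured 6 were higher and none lower, with a median log2 ratio of 0.15. BGLU16 was at 378 after 24 h, against 103 on the cold-acclimated array (3.69-fold), BGLU40 at 188 after 24 h, against 69.6 on the cold-acclimated array (2.70-fold), and BGLU45 at 51.0 after 24 h, at least 3.17-fold higher. PYK10, a beta-glucosidase that is abundant in roots, was at 106 after 24 h and under the floor on the cold-acclimated array, at 15.8, and at least 6.58-fold higher. It was the only one of 6 root marker genes on the annotation, so the part that root tissue or a larger share of any cell type might have in these values was not tested. In these whole shoots more cells of a type and more RNA per cell cannot be told apart. FMA, a guard cell factor, was at 42.8 after 24 h and 46.7 on the cold-acclimated array.

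**Figure D4:**
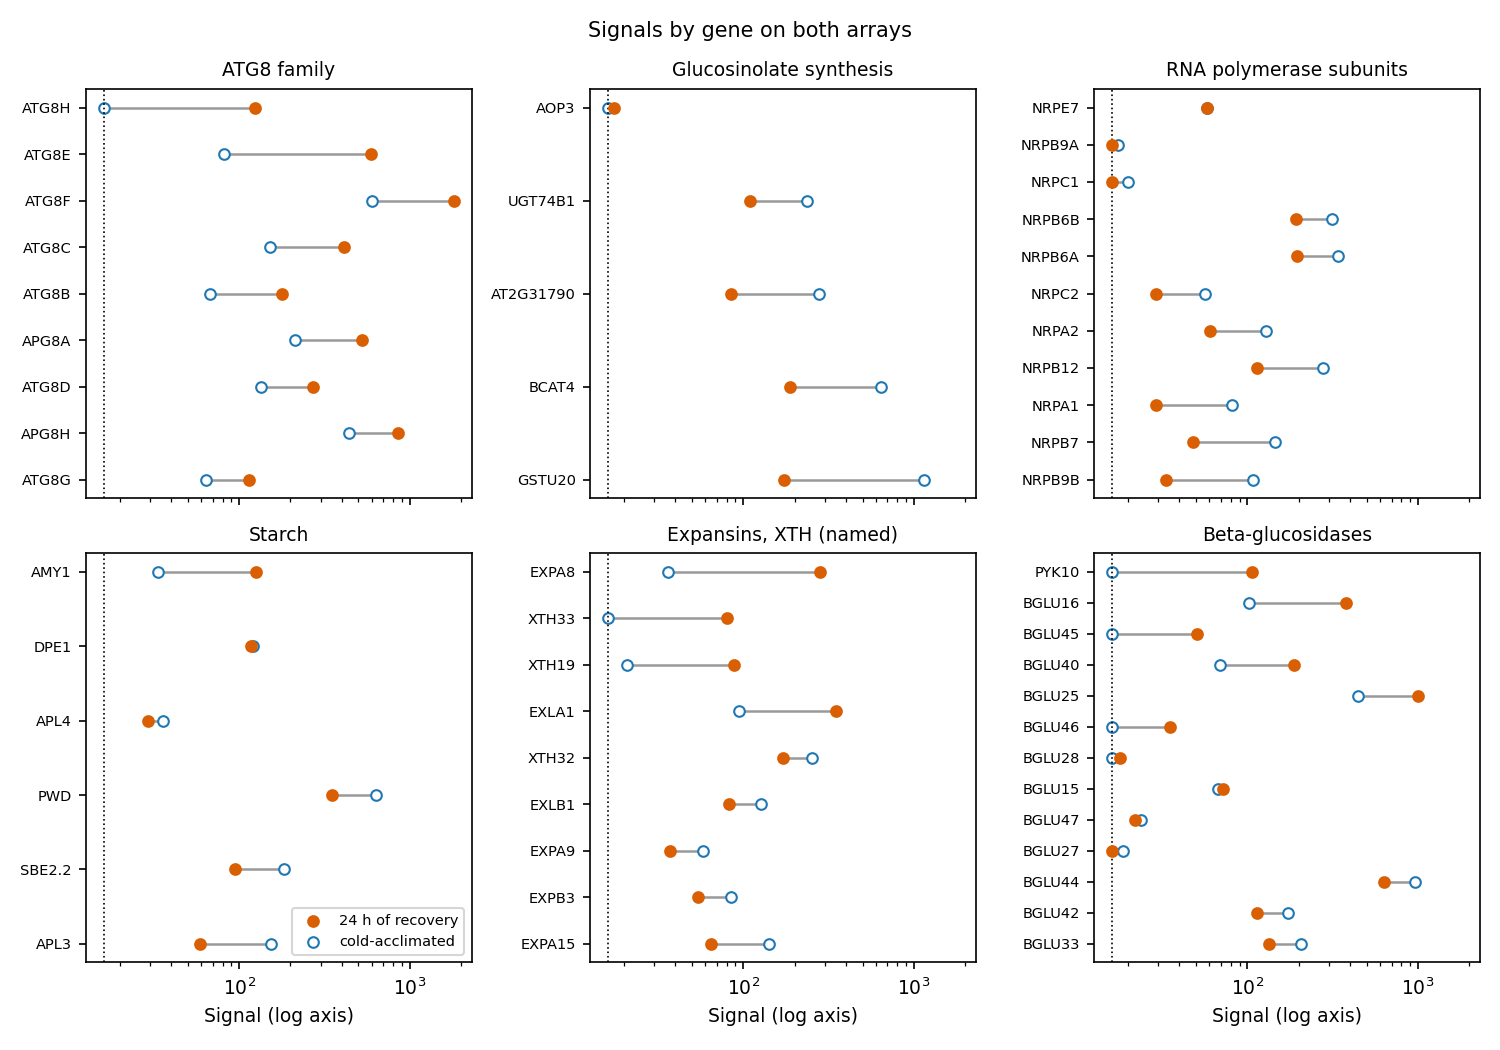
Signals on a log axis after 24 h of recovery (filled) and on the cold-acclimated array (open) for genes of 6 groups, 1 array each, with signals under the floor of 16.1 (dotted line) set to it; all measured members are shown except for expansins and xyloglucan enzymes, where 9 of 20 are. All 9 ATG8 genes have the filled point on the right, and RNA polymerase subunits have it on the left or level. Of 13 beta-glucosidases 6 are at least 2-fold higher and none lower. The cell wall genes shown, mostly those with the highest and lowest ratios, lie on both sides.

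Cell wall loosening genes included several with large differences. Expansins and xyloglucan enzymes, which let walls stretch or rebuild their cross-links, had 6 of 20 measured members higher and 1 lower, with a median log2 ratio of 0.10. EXPA8 was at 280.4 after 24 h, against 36.1 on the cold-acclimated array (7.78-fold), and under the floor at 3 h (2.45). XTH19 was at 88.2 after 24 h, against 20.8 on the cold-acclimated array (4.25-fold), and EXLA1 at 350.1 after 24 h, against 94.5 on the cold-acclimated array (3.71-fold), with 1550 at 3 h. EXPA15 was the lower one, at 64.3 after 24 h, against 141 on the cold-acclimated array (2.19-fold). EXO, a brassinosteroid-responsive gene for leaf cell expansion, was at 409 after 24 h, against 58.3 on the cold-acclimated array (7.01-fold higher), after 819 at 3 h. It was in no group and is named because it was among the 40 highest ratios.

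TBL proteins, many of which acetylate wall polymers, were grouped after values were seen. Of 18 measured members 2 were higher (11.1%) and 3 lower (16.7%), with a median log2 ratio of 0.08. Over all measured genes the shares were 7.55% and 7.95%. TBL37 was at 303 after 24 h, against 89.7 on the cold-acclimated array (3.38-fold), and TBL26 was at 44.7 after 24 h, against 226 on the cold-acclimated array (5.05-fold lower). Among class III peroxidases, which cross-link walls and make or use peroxide outside the cell, 2 of 5 were higher. PRX71 (AT5G64120) was at 462 after 24 h, against 36.0 on the cold-acclimated array (12.8-fold), and 120 at 3 h. PRX52, which serves lignin, was at 57.1 after 24 h, against 19.0 on the cold-acclimated array (3.01-fold). None of the 7 measured tubulin genes was past 2-fold.

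Calcium sensors of the calmodulin-like family had 4 of 7 measured members higher and none lower, with a median log2 ratio of 1.06. CML38 was at 117 after 24 h, against 34.1 on the cold-acclimated array (3.44-fold), a fraction of its 3 h signal of 1507. CML30 and CML41 had the reverse order: they were at 92.8 and 146 after 24 h, against 33.8 and 65.0 on the cold-acclimated array, and at 28.2 and 33.1 at 3 h. CML37, at 477 at 3 h, was back at 39.1 after 24 h, with 35.7 on the cold-acclimated array. PUB19, a U-box ubiquitin ligase of stress signalling, was likewise at 98.7 after 24 h and 105 on the cold-acclimated array, after 965 at 3 h. WRKY47 was the only one of 5 WRKY factors past 2-fold, at 113 after 24 h, against 46.3 on the cold-acclimated array.

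Families of detoxifying and conjugating enzymes had a few members past 2-fold in both directions. Over all measured genes 7.55% were higher and 7.95% lower. Of 31 UDP-glycosyltransferases 5 were higher and 3 lower (median 0.18), of 11 glutathione transferases 2 and 2 (median -0.01), and of 15 cytochromes P450 2 and 2 (median 0.12). The 3 lower UDP-glycosyltransferases, UGT78D1, UGT78D2 and UGT74B1, were already counted with flavonoid or glucosinolate synthesis. GSTU20, among the lower glutathione transferases, was also counted with glucosinolate synthesis. UGT76E12 was at 94.1 after 24 h and under the floor on the cold-acclimated array, at 1.08, at least 5.84-fold higher. UGT76C2, which inactivates cytokinins, was at 68.2 after 24 h, against 30.2 on the cold-acclimated array (2.26-fold). The P450 gene CYP71B24 was at 151 after 24 h, against 44.96 on the cold-acclimated array (3.35-fold), and GSTU16 at 180 after 24 h, against 66.9 on the cold-acclimated array (2.68-fold).

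Transporters for nitrate and peptides, tetraspanins and ubiquitin-specific proteases were further groups added after values were seen. Their counts stand beside shares of 7.55% higher and 7.95% lower over all measured genes. Among the nitrate and peptide transporters 1 of 11 was higher and 2 lower. NPF6.2 (AT2G26690) was at 621 after 24 h, against 181 on the cold-acclimated array (3.42-fold). NPF3.1 (AT1G68570) was at 208 after 24 h, against 566 on the cold-acclimated array (2.72-fold lower), and NPF4.4 (AT1G33440) at 31.3 after 24 h, against 99.1 on the cold-acclimated array (3.17-fold lower). The glucosinolate transporters GTR1 and GTR2, of the same family, lay within 2-fold with the higher signal after 24 h, at 245 and 435 after 24 h and 135 and 299 on the cold-acclimated array. Tetraspanins had 2 of 11 higher and 1 lower, with TET8, a marker of secreted vesicles, at 1047 after 24 h, against 502 on the cold-acclimated array (2.09-fold). Of 12 ubiquitin-specific proteases none was higher and 2 were lower, UBP23 at 47.6 after 24 h, against 179 on the cold-acclimated array, and UBP21 at 25.6 after 24 h, against 58.3 on the cold-acclimated array.

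At the same hour of the cycle the clock gene GI was lower, at 278 after 24 h, against 659 on the cold-acclimated array (2.38-fold), with 385 at 3 h. GI links the clock to flowering and is regulated by light, cold and the hour, and few other clock genes are on the annotation. The other measured gene on this list, AT1G69570, was within 2-fold, at 85.2 after 24 h and 75.9 on the cold-acclimated array. RR16, an early cytokinin-response regulator, was at 208 after 24 h, against 91.1 on the cold-acclimated array (2.29-fold higher), after a low of 28.0 at 3 h. Its relative ARR15 was within 2-fold, at 54.5 after 24 h and 71.5 on the cold-acclimated array. Both measured genes for fermentation were lower: PDC2, pyruvate decarboxylase, was at 218 after 24 h, against 458 on the cold-acclimated array, and AT4G17260 at 104 after 24 h, against 234 on the cold-acclimated array.

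Among probe sets with 1 named gene, list members included, the 40 highest ratios above the floor on both arrays ran down to 2.60 and the 40 lowest up to -2.14. Probe sets without 1 named gene were left out of this ranking, although 48 of them lay at or above that upper value and 39 at or below the lower one, with extremes of 5.54 and -6.20. Most of these genes are known in the reference by locus code alone. Of those with names not yet given, BZIP61, a transcription factor gene, was at 140.0 after 24 h, against 19.7 on the cold-acclimated array (7.11-fold higher), and under the floor at 3 h. MYBC1, a factor that restrains freezing tolerance, was at 88.6 after 24 h and under the floor on the cold-acclimated array, at least 5.50-fold higher. The lowest ratio among these named probe sets was that of AT3G44450, at 35.7 after 24 h, against 560.1 on the cold-acclimated array (15.7-fold lower), with 72.0 at 3 h. AT1G31690 was next, at 17.4 after 24 h, against 258 on the cold-acclimated array (14.8-fold lower), and its second probe set was under the floor after 24 h and at 106 on the cold-acclimated array. THI2.2, a thionin, was under the floor after 24 h, at 7.98, and at 59.8 on the cold-acclimated array, at least 3.72-fold lower.

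Genes chosen for stable expression were too few to set a scale for the other differences. None of 5 measured reference genes was past 2-fold, and their median log2 ratio was -0.01. PEX4 was at 214 after 24 h and 217 on the cold-acclimated array, and GAPC2 at 2910.5 after 24 h and 2408 on the cold-acclimated array. Of these 5, AT4G26410 stood farthest from equality, at 231 after 24 h and 351 on the cold-acclimated array. Unlike GAPC2, the control probe sets for GAPDH had lower signals after 24 h, with log2 ratios between -0.36 and -0.79. RNA quality, read as the ratio of 3' to 5' control probe sets, was 0.803 after 24 h and 1.01 on the cold-acclimated array for GAPDH, and 2.09 and 2.55 for actin.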

How the data were processed

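Each deposited value is a probe set's signal intensity on a linear scale; per the submitters' processing notes the authors used MAS5, whose version and settings are not given in the sources used here. All 3 arrays had a 2% trimmed mean of 100.0, so the intensities were used as deposited. Signals below 16.1, the 30th percentile of all Arabidopsis signals, were set to it, and a log2 ratio of the 24h-post-freeze over the cold-acclimated array was taken. A probe set under the floor on both arrays was not measured. With 1 array per group no test was run, the number of arrays limits the precision, and fold differences of at least 2 were counted.

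Names came from the platform annotation, updated through RefSeq's table for TAIR10.1: 13513 probe sets had 1 gene, 503 several and 8730 none, and 13436 of the first matched the table. Each gene was read by its brightest probe set. Lists (36, with 815 places, 166 of them on the annotation and 42 of those known by locus code alone) were written by hand by locus. Families were matched by symbol or synonym (17 of 25 had a member), and 12 more were added after values were seen. Name patterns that had caught unrelated genes, such as a cyclophilin and peptide deformylases, were then corrected. Members, lists and families were chosen with earlier results of these data known. Named were all members of groups with up to 6 measured genes, and otherwise the 4 highest, the 4 lowest and the brightest on the cold-acclimated array, plus the 40 highest and 40 lowest ratios with the brighter signal at or above 41.7 and, in each direction, 20 genes bright on 1 array and at the floor on the other. Alternatives were other scalings, other floors (the 15th and the 45th percentile), adding a pseudocount of 16 instead, and leaving out cross-hybridizing probe sets; leaving out members known by code alone, members listed with their values known and polymerase subunits on a second list was added later. The functions were tested on simulated data. Promoter motifs were not analysed here. Software was Python 3.11.15, numpy 2.4.6, pandas 2.3.3, scipy 1.17.1, statsmodels 0.14.6 and matplotlib 3.10.9.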

Additional observations from a re-analysis of the deposited data

Results flagged for a closer look

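Control probe sets that the comparison does not use include 2 that stood at least 2-fold above their cold-acclimated signal after 24 h. The 25S ribosomal RNA control was at 1292.06 after 24 h, against 238 on the cold-acclimated array (5.42-fold), with 444 at 3 h. The control probe set for the middle of a ubiquitin transcript was at 2630.02 after 24 h, against 1223 on the cold-acclimated array, with 2334 at 3 h. That for 5S ribosomal RNA was under the floor after 24 h, at 7.98, and at 75.6 on the cold-acclimated array, with 65.1 at 3 h.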

How the results depend on the processing

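Of the log2 ratios of 383 named genes, none past 2-fold changed direction under the alternatives run. This could hardly have come out otherwise. The largest scaling shifted the log2 ratios by 0.51, which is under 2-fold, and a floor or pseudocount cannot change a sign. Their size was less steady, as 126 of the 383 moved under some alternative other than scaling to the hybridization controls. With a single array per state nothing here measures the spread between plants. The values moved most with scaling to the bacterial hybridization controls, which gave 603 probe sets at least 2-fold higher and 3459 lower, so that 14.8% of the differences were higher. With it the medians were 3.21 for dark-induced markers, 0.58 for branched-chain amino acid and lysine breakdown, 0.45 for autophagy, -0.49 for senescence, -0.46 for chlorophyll synthesis, -0.050 for photosystem subunits, -1.10 for sucrose and sugar transport, -1.08 for starch, -1.20 for the cold regulon, 2.46 for jasmonate, -2.25 for glucosinolates, -1.93 for ribosome biogenesis and -1.31 for endoplasmic reticulum folding; the controls' own median of 0.51 sets this shift. Of 48 lists and families with a median, 15 had one of opposite sign under this scaling, among them photosystem subunits, chlorophyll synthesis and senescence. The number of higher members moved by over 1.5 times in 19 of the 48 and that of lower members in 21, against 7 and 5 with the pseudocount. The floor at the 15th percentile gave 2234 higher and 2195 lower probe sets, by letting dimmer signals differ. The flavonoid-related median was -1.76 when the 45th percentile served as floor and -1.89 with the pseudocount, and the dark-induced median was 3.31 with the pseudocount. With only the members that the reference names, an alternative added after seeing the data, the medians were 1.35 for autophagy and 2.43 for jasmonate. Likewise added, leaving out the 3 members listed with their values known gave a dark-induced median of 2.39, with 2 of 3 higher. No paired analysis was possible because each group held 1 array.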
